A study of Rattus norvegicus with 10 samples.

Results

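The mitochondrial genes for subunits of respiratory complexes III, IV and V were examined in the cerebral cortex of fetal rats. They were chosen by position: of the 37 features on the mitochondrial chromosome (MT), 15 are longer than 190 bases, and 6 of these, taken in genome order, are mt-co1, mt-co2, mt-atp8, mt-atp6, mt-co3 and mt-cyb. They are 6 of the 26404 genes listed in each file. The files give identifiers only, so the names come from the fixed gene order of mammalian mitochondrial DNA.

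All 10 fetuses were Sprague Dawley rats at embryonic day 21, and RNA came from the right cortex. In the oxytocin group (5 pups, each from its own dam) the dam had received 100 mcg of oxytocin per kg intravenously, and in the saline group (5 pups, likewise) an equal volume of saline. Tissue was taken 24 h later, so the comparison asks which cortical transcripts differ a day after maternal oxytocin. RNA with an integrity number above 9.5 was selected with oligo-dT in both groups, and fetal sex is not among the labels. The libraries held 18723390 to 30404127 assigned counts after oxytocin and 18555172 to 20776414 after saline. The labels name 1 sequencing run for all of them.

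Oxidative phosphorylation passes electrons from complex I through complexes III and IV to oxygen, and complex V uses the proton gradient that this builds to make ATP. Most subunits are encoded in the nucleus, but each of these complexes has a catalytic or proton-conducting core encoded in mitochondrial DNA. Both strands of that DNA are transcribed as long precursors, from which the mRNAs are released mainly by cutting out the tRNAs that lie between them, and most of these mRNAs then receive a short poly(A) tail. Neurons depend heavily on this pathway for ATP.

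By role, mt-cyb (ENSRNOG00000031766, MT, 14136 to 15278) encodes cytochrome b, the complex III subunit in which ubiquinol is oxidised. The complex IV genes are mt-co1 (ENSRNOG00000034234, MT, 5323 to 6867), whose product holds the site of oxygen reduction, mt-co2 (ENSRNOG00000030371, MT, 7006 to 7689), whose product takes up electrons from cytochrome c, and mt-co3 (ENSRNOG00000030700, MT, 8599 to 9382), the remaining core subunit. The complex V genes are mt-atp6 (ENSRNOG00000031979, MT, 7919 to 8599), whose product forms part of the proton channel, and mt-atp8 (ENSRNOG00000033299, MT, 7758 to 7961), a small membrane subunit. Coordinates are those of the files; the submitters' processing notes name the build Rnor_5.0. All 6 lie on the plus strand as single intervals without introns.

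From mt-co1 to mt-co3 the genes follow each other closely. Between mt-co1 and mt-co2 lie 138 bases with 2 tRNA-sized features, 1 on each strand, and between mt-co2 and mt-atp8 lie 68 bases with 1 such feature. No tRNA feature separates mt-atp8, mt-atp6 and mt-co3. The mt-atp8 and mt-atp6 features share 43 bases, which is 21.1% of mt-atp8 and 6.31% of mt-atp6, and mt-atp6 and mt-co3 share 1 base. In mammals, mt-atp8 and mt-atp6 are translated from a common mRNA. Reads in shared bases may have been counted for either gene or for none, and the counting rule is not given in the sources used here; the same holds for strand and for reads that also match copies of mitochondrial DNA in the nuclear genome.

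Among the listed features of this oligo-dT selected RNA, the 6 genes had the highest levels per kilobase. In deposited RPKM (the library-scaled count divided by the listed length in kilobases), they held the first 6 ranks of all 26404 in 10 of 10 libraries. Over all 10 libraries the level was 10113 ± 899 RPKM for mt-atp6, 9369.9 ± 759 for mt-co1, 7618 ± 591 for mt-co3, 5776 ± 423 for mt-co2, 5466 ± 501 for mt-cyb and 4754 ± 377 for mt-atp8 (SD, n = 10). The order was the same in 9 libraries, and in oxytocin replicate 5 mt-cyb stood above mt-co2.

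**Figure D1:**
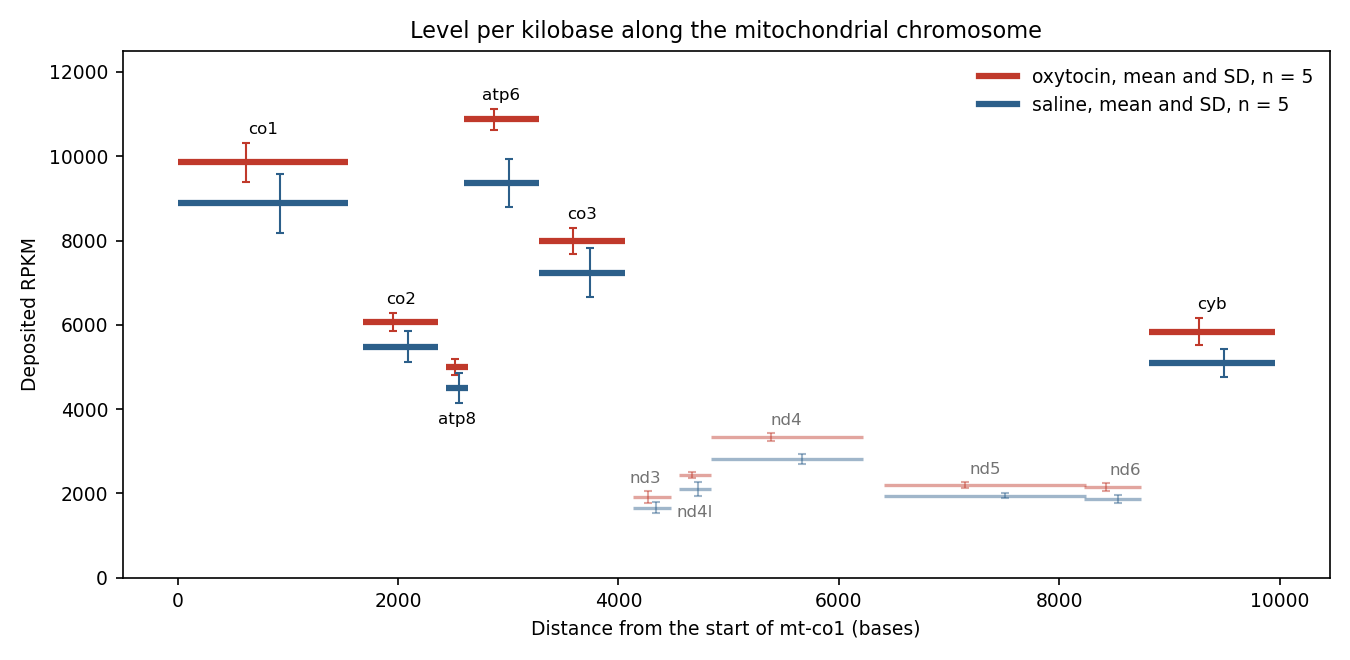
Deposited RPKM of mt-co1 and the protein genes that follow it, drawn at their distance in bases from the start of mt-co1; thick lines mark the 6 complex III, IV and V genes, thin lines complex I genes, and bars the SD of 5 libraries. All 6 lie above the complex I genes shown, with mt-atp6 highest at 10871 RPKM after oxytocin and 9356 after saline.

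The neighbours in this order were compared within each library. The step from mt-co1 down to mt-co3 was 0.30 ± 0.041 on the log2 RPKM scale, and the step from mt-co3 to mt-co2 was 0.40 ± 0.041 (SD, n = 10). Both steps were several times their spread. The step from mt-cyb to mt-atp8 was 0.20 ± 0.067 on listed lengths, but its sign rests on the length used. With the shared bases left out of the lengths of mt-atp8 and mt-atp6, a calculation added after the data were seen, mt-atp8 stood at 6023 ± 478 RPKM, above mt-cyb in 10 of 10 libraries and above mt-co2 in 7. The last place of mt-atp8 thus does not hold on both lengths, while mt-atp6 stayed first. The step from mt-atp6 to mt-co1 was 0.11 ± 0.065 on listed lengths, down to 0.018 in 1 library. That from mt-co2 to mt-cyb was 0.081 ± 0.051 with 1 library of opposite sign. On listed lengths those last pairs stood close to each other relative to their spread. With the shared bases left out, the log2 RPKM of mt-co1 minus that of mt-atp6 was -0.20 ± 0.065, so this pair stood further apart. By count, without correction for length, mt-co1 was the most counted of all features in every library and mt-atp8, the shortest, ranked between 61 and 105.

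Genes that share one mRNA had unequal levels in these files. The ratio of mt-atp8 to mt-atp6 per kilobase was 0.471 ± 0.019 (SD, n = 10), and 0.559 ± 0.023 when the shared bases were left out of both lengths. It lay between 0.431 and 0.497 on listed lengths in every library. The part that read assignment or the short length of mt-atp8 plays in this ratio was not tested.

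After maternal oxytocin each of the 6 genes stood 1.12-fold to 1.18-fold higher than after saline in the fitted means, but none passed the test across all genes. In edgeR's quasi-likelihood test with Benjamini-Hochberg adjustment over 14400 features, 0 of 6 had an adjusted p under 0.05, and 0% of all tested features did. At an unadjusted p under 0.05 the count was 6 of 6, all higher after oxytocin, where 1.93% of all features (278) were higher and 1.64% (236) lower at that level. With scaling by library size alone these numbers were 167 higher (1.16%) and 492 lower, and without saline replicate 5 they were 508 higher (3.51%) and 333 lower. The count for the 6 genes was 6 in both. The median log2 fold change was 0.18 over the 6 genes and -0.003 over all features. The 6 genes share precursor transcripts and libraries, so their counts are not 6 separate observations. In bulk tissue, more cells of a type and more RNA per cell cannot be told apart.

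Of the complex V genes, mt-atp6 showed the clearest separation of the groups. It stood at 7114, 7486, 7534, 7378 and 7502 deposited CPM (the count relative to the sum of the library's counts) in oxytocin replicates 1 to 5, and at 6656, 6206, 6625, 6605 and 5766 in saline replicates 1 to 5. All oxytocin libraries lay above all saline libraries, and the oxytocin values were close together except for replicate 1. The log2 fold change was 0.24 ± 0.046 (SE; 95% interval 0.14 to 0.34; unadjusted p = 0.000161 and adjusted p = 0.561 by the edgeR test). DESeq2 gave the same fold change with an adjusted p of 0.00173, so mt-atp6 passed there, as 7 of 5575 adjusted features did (0.126%). It also passed without DESeq2's independent filtering, as 0.0296% of features did, and with that filtering set for 0.05, as 0.349% did. The other 5 genes did not pass in these DESeq2 fits. The calls lay mostly among neighbouring mitochondrial genes: mt-nd1, mt-nd2, mt-nd4, mt-nd5 and mt-nd6, which encode complex I subunits, passed in all 3 fits. With mt-atp6 they were 6 of the 7 features called, and 6 of 6 without independent filtering. With filtering set for 0.05, mt-nd4l passed too, and 7 of the 10 called features were mitochondrial.

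For mt-atp8 the values were 1010.2, 1034, 973, 1012 and 1075 CPM after oxytocin and 941, 917, 987, 951 and 796 after saline. The groups overlapped only through oxytocin replicate 3 and saline replicate 3. The log2 fold change was 0.18 ± 0.057 (SE; 95% interval 0.056 to 0.30; adjusted p = 0.9997 by the edgeR test).

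The complex III gene mt-cyb was the other gene without overlap. Its CPM was 6170.4, 7169, 6689.6, 6507 and 6841 after oxytocin and 6092, 5594, 6019, 6129 and 5264 after saline. The gap was narrow, since oxytocin replicate 1 lay just above saline replicate 4. The log2 fold change was 0.22 ± 0.055 (SE; 95% interval 0.10 to 0.34; adjusted p = 0.9997 by the edgeR test). Groups without overlap and higher after oxytocin were thus found for 2 of 6 genes, against 0.375% of all tested features.

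The complex IV genes overlapped between the groups. For mt-co1, oxytocin replicates 1 to 5 gave 14721, 15642, 16015, 15509 and 14253 CPM, and saline replicates 1 to 5 gave 14405, 13909, 14594, 13829.7 and 11887. Oxytocin replicate 5 lay within the saline range, and the other oxytocin libraries lay above it. The log2 fold change was 0.18 ± 0.056 (SE; 95% interval 0.056 to 0.30; adjusted p = 0.9997 by the edgeR test).

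For mt-co2 the levels were 3985, 4346, 4249, 4132 and 4056 CPM after oxytocin and 4075, 3646, 3826, 3801 and 3389 after saline. Here saline replicate 1 reached into the oxytocin range, above oxytocin replicates 1 and 5 in CPM. The log2 fold change was 0.17 ± 0.050 (SE; 95% interval 0.066 to 0.28; adjusted p = 0.9997 by the edgeR test).

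For mt-co3 the levels were 6197, 6383, 6436, 6454 and 5878 CPM after oxytocin and 6086, 5416, 5935, 5932 and 5007 after saline. Oxytocin replicate 5 was again the low library of its group, below saline replicates 1, 3 and 4. The log2 fold change was 0.17 ± 0.056 (SE; 95% interval 0.049 to 0.29; adjusted p = 0.9997 by the edgeR test), the lowest of the 6.

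**Figure D2:**
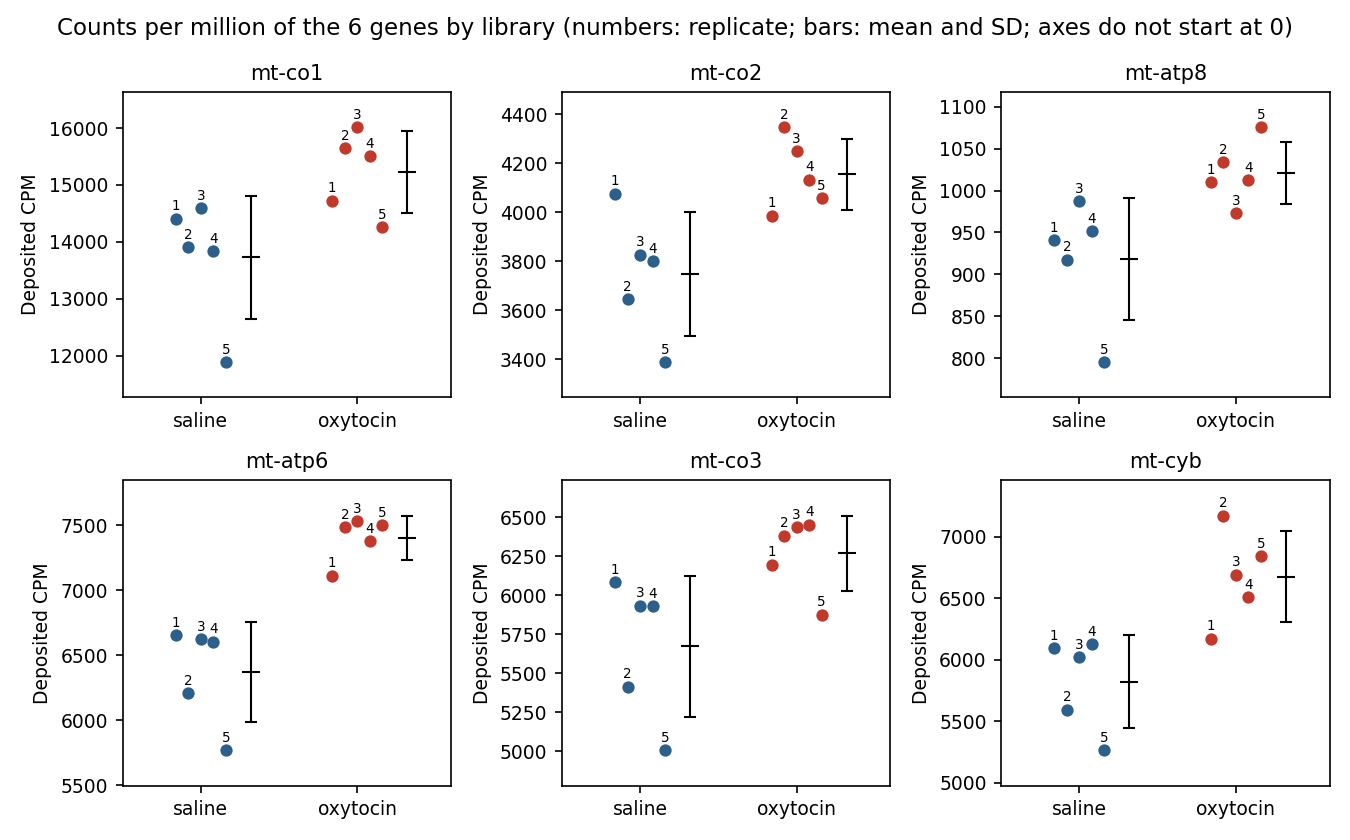
Deposited CPM of each gene in every library, with replicate numbers beside the points and the mean and SD of 5 libraries as bars; the axes do not start at 0. Saline replicate 5 is the lowest library in all 6 panels, and the groups are apart for mt-atp6 and mt-cyb.

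Saline replicate 5 was the lowest saline library for 6 of 6 genes, from 11.6% below the mean of the other saline libraries for mt-atp6 to 16.2% below it for mt-co1. Its total count, 18555172, was also the lowest, close to that of saline replicate 4 with 18700052. Without it the log2 fold changes of the 6 genes ran from 0.13 (mt-co3) to 0.21 (mt-atp6). The coefficient of variation of CPM was larger after saline than after oxytocin for 6 of 6 genes, and for 3 of 6 without saline replicate 5. The part of depth in the low values of this library was not tested.

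Summed by complex, as a description, the 3 complex IV genes held 25652 ± 1063 CPM after oxytocin and 23147 ± 1723 after saline, and the 2 complex V genes 8424 ± 181 and 7290.0 ± 455 (SD over 5 libraries). The 6 genes together made up 68.1% ± 1.07 of the counts of the 13 mitochondrial protein genes among oxytocin libraries and 69.1% ± 1.38 among saline libraries (SD over 5 libraries). The 6 heavy-strand complex I genes had log2 fold changes from 0.20 to 0.36, with a median of 0.25. The groups did not overlap for 5 of those 6, against 0.375% of all tested features that were higher after oxytocin without overlap. These complex I genes also share precursor transcripts and libraries.

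**Figure D3:**
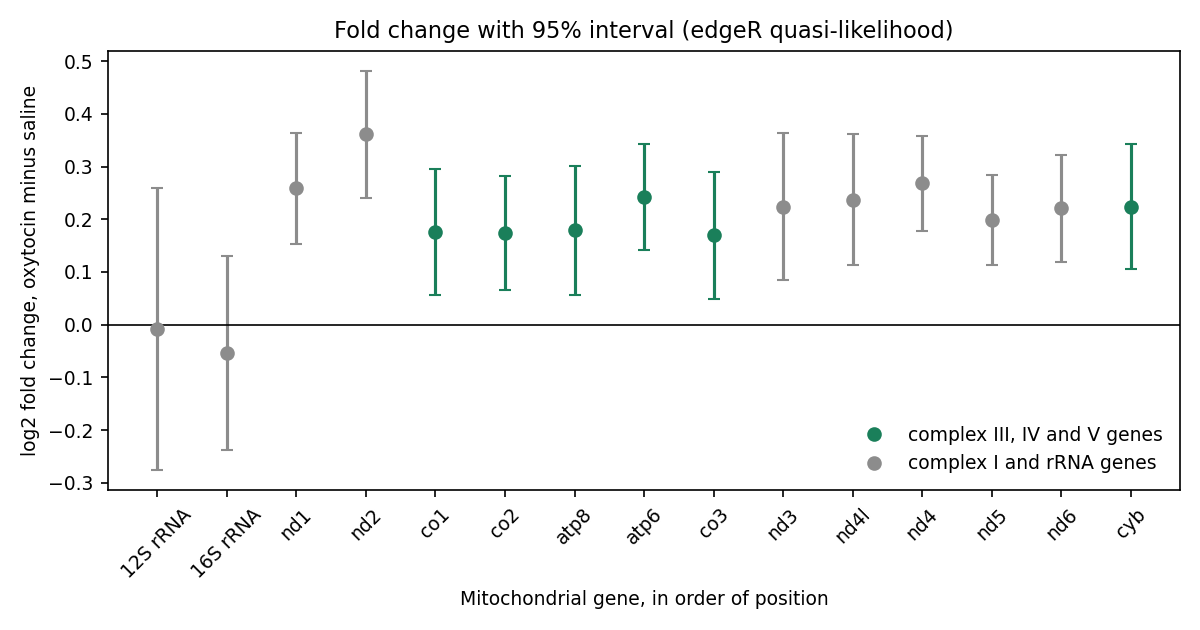
Log2 fold change of oxytocin against saline for the 15 long mitochondrial genes in genome order, with 95% intervals from edgeR's quasi-likelihood test, unadjusted. The 6 complex III, IV and V genes lie between 0.17 and 0.24, and their intervals overlap those of the complex I genes.

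Whether the genes moved in proportion was tested by ratios of counts within each library, which do not depend on scaling between libraries. There were 12 ratios, 6 between these genes and 6 of each gene to the summed heavy-strand complex I genes. Exact two-sided permutation tests over 252 assignments of the labels were adjusted over the 12, and the smallest possible p is 0.0079. A single ratio shifted alone could not go below an adjusted p of 0.0952, so such a shift could not pass 0.05 here. The smallest adjusted p was 0.405, and 1 of the 12 had an unadjusted p under 0.05. The intervals given are the shifts that the permutation test did not reject at 0.05.

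Within complex IV the proportions were nearly the same in both groups. There were 3.67 ± 0.11 counts of mt-co1 per count of mt-co2 among oxytocin libraries and 3.66 ± 0.15 among saline libraries (SD over 5 libraries), a log2 difference of 0.002 with an interval of -0.08 to 0.08 (exact permutation p = 0.944). The ratio of mt-co1 to mt-co3 was 2.43 ± 0.043 and 2.42 ± 0.095, a log2 difference of 0.0058 with an interval of -0.065 to 0.065 (exact permutation p = 0.833). A shift of the size of the fold changes themselves lay outside these intervals.

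Complex V showed the ratios with the lowest p. The ratio of mt-atp8 to mt-atp6 counts was 0.142, 0.138, 0.129, 0.137 and 0.143 in oxytocin replicates 1 to 5 and 0.141, 0.148, 0.149, 0.144 and 0.138 in the saline replicates. The groups overlapped, with a log2 difference of -0.062 and an interval of -0.135 to 0.01 (exact permutation p = 0.0952, adjusted p = 0.405). Without oxytocin replicate 3, the library with the low ratio, the difference was -0.039. The ratio of mt-atp6 to mt-co3 was 1.15, 1.17, 1.17, 1.14 and 1.28 after oxytocin and 1.09, 1.15, 1.12, 1.11 and 1.15 after saline. Its log2 difference was 0.072, with an interval of 0.01 to 0.145 (exact permutation p = 0.0397, adjusted p = 0.405), and 0.044 without oxytocin replicate 5, the library with the high ratio.

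The ratio of mt-co2 to mt-atp8 differed by -0.005 on the log2 scale, with an interval of -0.11 to 0.115 (exact permutation p = 0.905). The ratio of mt-co3 to mt-cyb differed by -0.052, with an interval of -0.165 to 0.05 (exact permutation p = 0.341). It was -0.020 without oxytocin replicate 5, -0.032 without oxytocin replicate 2 and -0.009 as a difference of medians.

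Set against the complex I genes of the same strand, all 6 genes had slightly lower ratios after oxytocin. The log2 differences ran from -0.094 for mt-co3 (interval -0.215 to 0.04, exact permutation p = 0.119, adjusted p = 0.405) to -0.022 for mt-atp6 (interval -0.11 to 0.075, exact permutation p = 0.563, adjusted p = 0.751). These 6 ratios share a denominator that includes mt-nd2, the gene named in the submitters' design text. Without mt-nd2 in it the difference for mt-co3 was -0.069 and that for mt-atp6 was 0.002. Without saline replicate 5 all 6 differences were larger in size, at -0.128 for mt-co3 (exact permutation p = 0.0317, adjusted p = 0.133), -0.126 for mt-atp8 (exact permutation p = 0.0238, adjusted p = 0.133) and -0.048 for mt-atp6. Other single libraries left out made them smaller. With each library left out in turn, mt-co3 ran from -0.128 to -0.066 and mt-atp8 from -0.126 to -0.060.

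**Figure D4:**
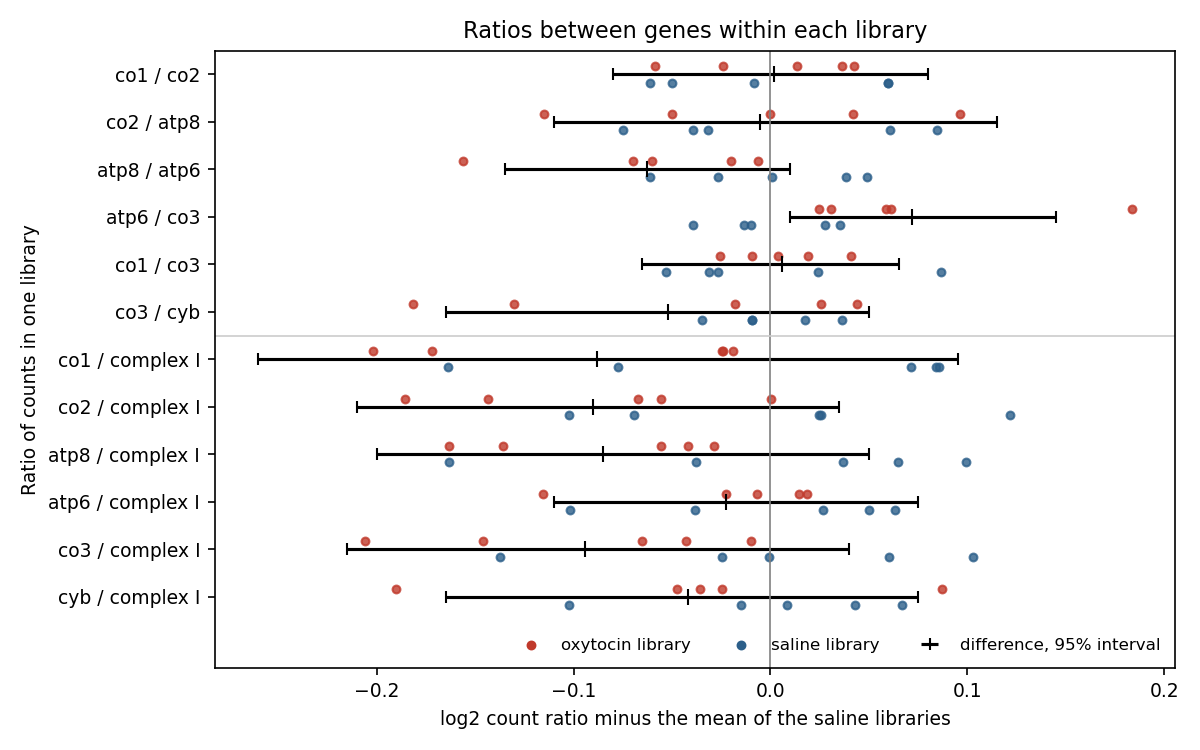
Log2 ratio of counts in each library, drawn relative to the saline mean of that ratio, for 6 ratios between the genes (upper rows) and 6 to the summed heavy-strand complex I genes (lower rows); black marks give the difference of means and its 95% interval. The interval leaves out 0 for mt-atp6 to mt-co3 alone, where oxytocin replicate 5 stands apart, and the points of the groups overlap in every row.

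How the genes varied together was described by their deviations from the group mean over the 10 libraries. Pearson's r between pairs of the 6 lay between 0.64 (mt-co1 and mt-atp8) and 0.91 (mt-atp6 and mt-cyb), and Spearman's rho between 0.43 and 0.90. The points share library, depth and scaling, and much of the likeness came with 1 library: without saline replicate 5 the same pairs gave r of -0.21 and 0.89. Among all other tested features, the highest r with the mean of the 6 genes belonged to nuclear genes, ENSRNOG00000019725 with 0.95 and ENSRNOG00000000399 with 0.95 (0.87 for each without saline replicate 5). Both genes were picked as the highest of 14394 r values, and how high such a maximum lies by chance was not tested. Their log2 fold changes were -0.002 and -0.003. Of the other 9 long mitochondrial genes, the 12S rRNA gene had the highest r with 0.73 and mt-nd6 the lowest with -0.07. The 12S level was also lowest in saline replicate 5, at 9.79 log2 CPM against 10.28 to 10.64 in the other saline libraries. For these mitochondrial genes r without saline replicate 5 is not given here, so the 12S value may rest on that library.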

How the data were processed

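RNA-seq counts of 10 rat cortex libraries were used, 5 per group, 1 file per library. The deposited count column holds whole-number reads per gene. Per the submitters' processing notes, STAR 2.0.4b, Subread featureCounts 1.45, bcl2fastq and the build Rnor_5.0 were used; strand handling and read assignment at overlaps are not given in the sources used here. The deposited CPM is the count relative to the summed counts of its file and the deposited RPKM is that CPM per kilobase of listed length (largest deviations 4.18e-11 and 7.09e-11).

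Counts were filtered with filterByExpr, which left 14400 features with all 6 genes among them, scaled by TMM and tested with edgeR 4.0.16 (glmQLFit and glmQLFTest with default settings, R 4.3.3) without covariates, adjusted over all features. The SE is the fold change divided by the square root of F. Overlap was judged on TMM-scaled log2 CPM (prior count 2). Alternatives used DESeq2 1.42.0, limma 3.58.1, other scalings and filters, and leaving out each library. Wilson 95% intervals of a gene's share of one library's counts were at most 1.61% of the share on either side and cover counting error only.

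The genes, lists and tests were chosen with earlier results of these data known. The genes named are the 6 and, by rule, the features whose deviations were most like theirs. The tables at hand matched 0 of 26404 identifiers to a symbol and hold 0 mitochondrial entries, so sequences, nuclear subunit and assembly-factor lists and cell type markers were not analysed here.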

Additional observations from a re-analysis of the deposited data

Results flagged for a closer look

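In 36 groups of 5 libraries (the 6 levels and the 12 ratios in each treatment), each extreme library's gap to its nearest neighbour was divided by the range and set against Dixon's 95% critical value of 0.71. Chance alone marks about 1 in 20 such groups. A single value exceeded it. The log2 ratio of mt-atp6 to mt-co3 was 0.352 in oxytocin replicate 5, where the other oxytocin libraries had 0.193 to 0.230, a gap of 0.767 of the range. In the same library mt-co3 was the lowest of its group, at 5878 CPM. Its mt-atp6 was within the range of the others in deposited CPM, at 7502, and the highest of its group in TMM-scaled log2 CPM, at 12.90 against 12.80 to 12.89.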

How the results depend on the processing

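In the 10 fits that left out one library and in 8 of the 11 alternatives that used all of them, 0 features and 0 of the 6 genes passed an adjusted p of 0.05. The exceptions were DESeq2, with 7 features and 1 of the 6 genes, DESeq2 without independent filtering, with 6 and 1, and DESeq2 filtered for 0.05, chosen after the data were seen, with 10 and 1. That gene was mt-atp6 each time (log2 fold change 0.243; adjusted p 0.00173, 0.00629 and 0.00089). At an unadjusted p under 0.05, all 6 genes were higher after oxytocin in all 22 fits, where 1.16% (library size alone) to 3.51% (without saline replicate 5) of all features were. Their log2 fold changes stayed between 0.144 and 0.246 over the other settings and between 0.126 and 0.261 without each library. Over 150 recomputed ratio differences, 8 had an unadjusted exact permutation p under 0.05 (mt-atp6 to mt-co3, and mt-atp8 and mt-co3 to complex I), and the lowest adjusted p was 0.133. Small ratio differences changed sign: mt-co2 to mt-atp8 with medians (0.031), and mt-atp6 to complex I without mt-nd2 (0.0022). Without each library, mt-co1 to mt-co2 ran from -0.0133 to 0.0171, mt-co1 to mt-co3 from -0.00745 to 0.0274, mt-co2 to mt-atp8 from -0.0308 to 0.0220, and mt-atp6 to complex I from -0.0479 to 0.000867. The cause of these changes was not tested. No paired analysis was possible because no label links an oxytocin library to a saline library. The replicate numbers used here only name libraries, in sample order within each group. The planned nuclear gene lists were not run, for want of gene names. Each of the 6 genes held at least 14764 counts in each library.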
